A study of Mus musculus with 10 samples.

Results

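Levels of imprinted genes were set side by side in 2 subregions of the nucleus accumbens, its lateral shell and its medial shell. This brain region forms the ventral striatum of the mouse. The genes were 39 listed by symbol for their parent-of-origin expression in mouse, and 36 of them were among the 20483 genes of the expression table. The other 3, Mkrn3, Peg12 and Phlda2, have no row in that table and no value here. Small pieces of tissue were captured by Geo-seq, which amplifies RNA from laser-captured tissue, in 5 libraries of the lateral shell of wild-type mice and 5 libraries of the medial shell of wild-type mice. The labels call the 5 libraries of a region biological replicates and do not say whether each came from its own animal, so p-values measure the spread between these libraries, which may be partly technical. Values are TPM, in which reads are divided by transcript length and scaled to a common library total, and a difference is a log2 fold change, lateral minus medial, of log2(TPM + 1).

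In an imprinted gene, the copy inherited from 1 parent is expressed and the other is silenced or reduced, because a nearby control region carries DNA methylation on the maternal or the paternal chromosome. Imprinted genes lie in clusters that share such a control region, and a cluster often holds protein genes expressed from the paternal copy beside noncoding RNA genes expressed from the maternal copy, or the reverse. Many are strongly expressed in the brain, where they are known for roles in growth, feeding, maternal care and synaptic function. TPM sums both parental copies, so these data give levels and not which allele was expressed. The 39 genes fall into 17 clusters or single loci on 10 chromosomes. In textbook terms 23 are paternally expressed, 14 maternally expressed or biased, and 2 depend on the isoform or the cell type, namely Inpp5f and Grb10.

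The promoters of 6 genes on which the results turn are shown first, those called or with separate groups and 2 of the noncoding RNA genes of chromosome 12, because the methylated base at imprinted control regions is the cytosine of the CpG dinucleotide. Each window runs from 250 bases before to 50 bases after a transcription start in RefSeq on GRCm38.p6, written 5′ to 3′ on the gene's own strand, with every CpG in capitals. The windows are chr2:157559828-157560127 (plus strand) for Nnat, chr2:157566312-157566611 (minus) for Blcap, chr1:63200108-63200407 (plus) and chr1:63273019-63273318 (plus) for Zdbf2, chr12:109540746-109541045 (plus) for Meg3, chr12:109603695-109603994 (plus) for Rian and chr7:6730370-6730669 (minus) for Peg3.
Nnat: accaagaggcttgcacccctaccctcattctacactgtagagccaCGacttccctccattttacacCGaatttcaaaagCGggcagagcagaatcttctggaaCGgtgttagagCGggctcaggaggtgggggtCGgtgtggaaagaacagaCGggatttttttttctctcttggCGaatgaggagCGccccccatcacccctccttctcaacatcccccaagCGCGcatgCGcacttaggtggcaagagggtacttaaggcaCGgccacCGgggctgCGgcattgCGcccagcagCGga
Blcap: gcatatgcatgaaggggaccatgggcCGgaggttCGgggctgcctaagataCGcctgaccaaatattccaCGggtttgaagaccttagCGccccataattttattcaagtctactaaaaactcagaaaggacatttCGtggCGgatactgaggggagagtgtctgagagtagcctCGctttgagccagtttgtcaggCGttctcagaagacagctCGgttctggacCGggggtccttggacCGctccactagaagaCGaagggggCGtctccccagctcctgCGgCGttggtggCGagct
Zdbf2 upstream start: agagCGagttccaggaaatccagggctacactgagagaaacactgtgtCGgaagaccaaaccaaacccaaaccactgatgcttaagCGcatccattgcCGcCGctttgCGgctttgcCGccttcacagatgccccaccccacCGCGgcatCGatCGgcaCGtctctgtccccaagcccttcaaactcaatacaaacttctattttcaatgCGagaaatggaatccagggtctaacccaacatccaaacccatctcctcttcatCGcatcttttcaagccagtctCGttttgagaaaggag
Zdbf2 downstream start: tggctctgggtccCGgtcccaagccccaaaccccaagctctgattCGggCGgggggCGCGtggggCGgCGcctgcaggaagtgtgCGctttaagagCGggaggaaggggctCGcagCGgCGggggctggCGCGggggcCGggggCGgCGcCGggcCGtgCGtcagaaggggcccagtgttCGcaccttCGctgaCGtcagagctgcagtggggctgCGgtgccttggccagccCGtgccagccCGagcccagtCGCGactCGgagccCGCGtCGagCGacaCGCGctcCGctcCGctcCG
Meg3: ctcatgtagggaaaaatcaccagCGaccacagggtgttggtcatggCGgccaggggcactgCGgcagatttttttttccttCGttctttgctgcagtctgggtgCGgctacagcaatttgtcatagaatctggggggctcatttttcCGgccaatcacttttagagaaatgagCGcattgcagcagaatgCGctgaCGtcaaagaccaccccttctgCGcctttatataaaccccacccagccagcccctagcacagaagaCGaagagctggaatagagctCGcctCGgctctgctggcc
Rian: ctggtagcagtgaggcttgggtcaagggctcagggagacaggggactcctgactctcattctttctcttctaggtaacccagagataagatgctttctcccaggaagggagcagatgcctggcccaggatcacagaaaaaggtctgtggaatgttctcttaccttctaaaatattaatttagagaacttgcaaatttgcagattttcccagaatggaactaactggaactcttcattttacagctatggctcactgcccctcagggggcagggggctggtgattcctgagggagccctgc
Peg3: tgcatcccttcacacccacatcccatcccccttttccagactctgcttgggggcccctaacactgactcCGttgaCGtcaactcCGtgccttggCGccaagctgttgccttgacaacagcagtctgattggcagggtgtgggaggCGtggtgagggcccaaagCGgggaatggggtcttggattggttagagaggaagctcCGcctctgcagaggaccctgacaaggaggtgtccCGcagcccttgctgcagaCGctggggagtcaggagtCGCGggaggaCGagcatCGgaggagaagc

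The number of CpGs differed widely between these windows. Nnat and Blcap each had 17, the upstream and downstream starts of Zdbf2 had 15 and 38, Meg3 and Peg3 each had 13, and Rian, a noncoding RNA gene downstream of Meg3, had 0. Promoter windows were matched by symbol for 32 of the 39 genes, 45 windows in all, with no entry for Sgce, Peg10, Impact, H19, Peg13, Cdkn1c and Trappc9. The member windows had a median of 13 CpGs, against 7 over all 32851 windows of the RefSeq table. The median was 11.5 over the 28 windows of paternally expressed genes and 15 over the 14 windows of maternally expressed or biased genes. At least 15 CpGs were present in 44.4% of member windows and in 34.6% of all windows. The hexamer TGCCGC, which the zinc finger protein ZFP57 recognises when it is methylated, was searched on both strands. It occurred in 31.1% of the member windows, in 13 genes, and in 11.6% of all windows. TGCCGC itself contains a CpG, and these shares were not matched for the higher CpG number of the member windows. A match describes these letters only, and some member windows share bases, since Snrpn and Snurf have the same window, 2 of the Mest windows that hold the hexamer start only 3 bases apart, and those of Peg3 and Usp29, which do not hold it, share 263 bases. The Nnat and Meg3 windows shown hold 1 match each and the upstream Zdbf2 window 3, while the Blcap, Rian, Peg3 and downstream Zdbf2 windows hold none. Another Meg3 window, chr12:109545148-109545447, is not shown and has 1 CpG and no match.

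**Figure D1:**
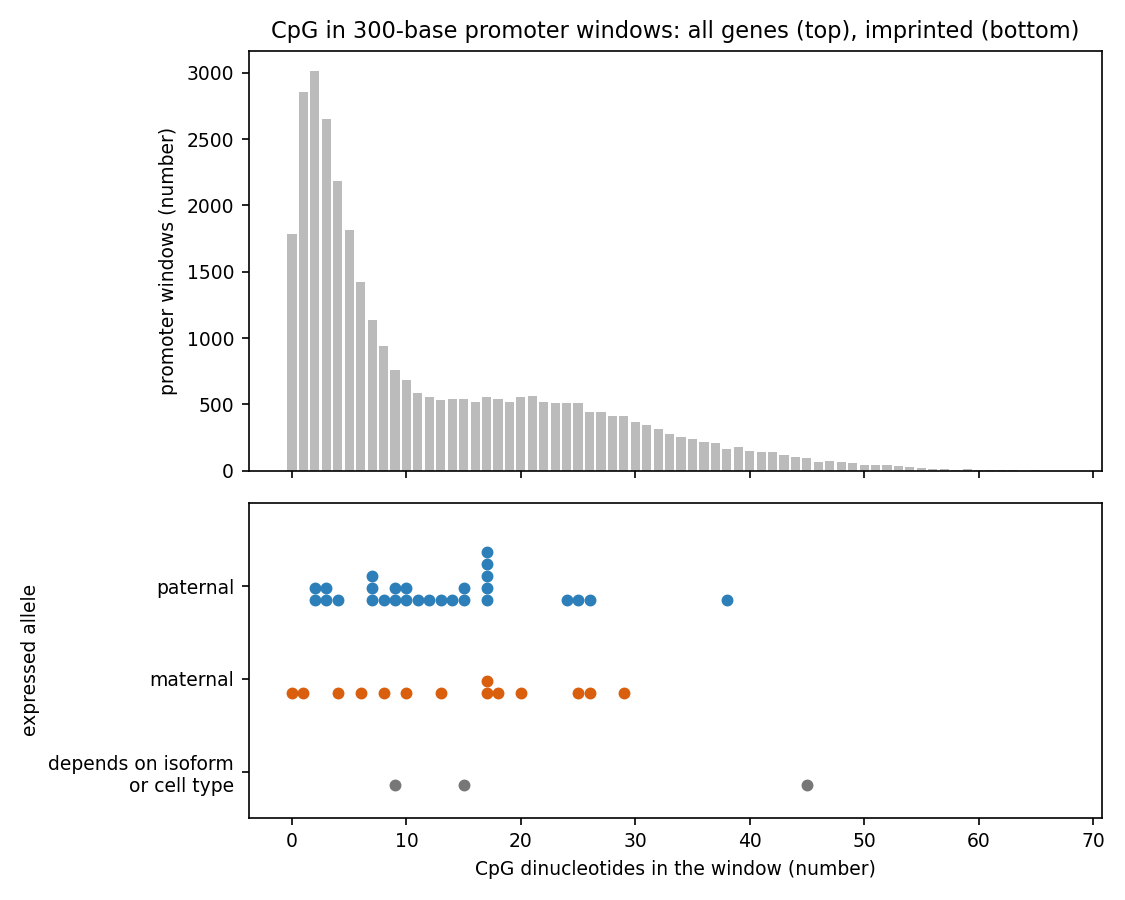
Number of CpG dinucleotides (x axis) in 300-base promoter windows, as the number of windows for all genes (top, bars) and as 1 point per window for the imprinted genes by expressed allele (bottom, points stacked where equal). All windows peak near 2 CpGs with a median of 7, and the imprinted windows have a median of 13 and reach 45 for 1 start of Grb10.

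The tissue labels were checked against cell type markers. Spiny projection neuron genes, such as the dopamine receptor genes Drd1 and Drd2, were present in every library, with 10 genes summing to 3760 to 5870 TPM in lateral, against 3909 to 6182 TPM in medial libraries. Of 6 markers of cortical glutamatergic neurons only 2 were in the table, summing to at most 3.31 TPM. The 4 hypothalamic markers in the table summed to 4.13 to 51.3 TPM in lateral, against 0.704 to 10.6 TPM in medial libraries. The 5 septal and basal forebrain markers, with Lhx6 also listed for GABAergic interneurons, summed to 6.43 to 32.0 TPM in lateral, against 2.67 to 32.4 TPM in medial libraries. Among the 10 spiny projection neuron genes none passed by limma. At an unadjusted p under 0.05, Tac1 and Pdyn were lower and Ppp1r1b and Bcl11b higher in lateral. Genes of other cells also varied with region. Over all tested genes, 0.385% passed as higher and 1.10% as lower in lateral. The shares at an unadjusted p under 0.05 by limma were 3.03% higher and 12.3% lower. The 8 microglia genes summed to 328 to 526 TPM in lateral, against 160 to 342 TPM in medial libraries, and 3 of the 8 passed as higher in lateral. The 8 oligodendrocyte genes summed to 251 to 811 TPM in lateral, against 76.7 to 398 TPM in medial libraries, and the 9 GABAergic interneuron genes to 523 to 5687 TPM in lateral, against 30.5 to 1708 TPM in medial libraries. By limma no gene of these 2 lists passed, and 4 genes of each were higher in lateral at an unadjusted p under 0.05. Of 8 astrocyte genes 1 passed as lower in lateral (sums of 836 to 1125 TPM in lateral, against 976 to 1336 TPM in medial libraries). At an unadjusted p under 0.05 by limma, 3 of the 8 were lower and 1, Gfap, was higher in lateral (mean 14.1 against 3.42 TPM). Of 6 tested neuroblast genes 1 passed as lower in lateral, Sox11 (7 genes summing to 219 to 286 TPM in lateral, against 194 to 357 TPM in medial libraries). Tubb3 made up most of that sum, averaging 227 TPM in lateral, against 218 TPM in medial libraries. The part of these differences in the results below was not tested, and in pieces of tissue fewer cells of a type and less RNA per cell cannot be told apart. The noncoding RNA AY036118 took 82500 to 144263 TPM in 8 libraries and 1.38 and 1.42 TPM in lateral replicate 5 and medial replicate 2.

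Among the imprinted genes, the levels were led by Snrpn in both regions. In lateral libraries the means above 100 TPM were those of Snrpn, Meg3, Nap1l5 and Impact, and in medial libraries those of Snrpn, Nnat, Meg3, Nap1l5, Impact and Blcap. Nnat was sixth by mean in lateral and second in medial libraries. All 36 genes summed to 1629 ± 163 TPM in lateral, against 2475 ± 781 TPM in medial libraries (SD, n = 5 each), with a range of 1436 to 1867 TPM in lateral, against 1408 to 3575 TPM in medial libraries. The ranges overlapped because medial replicate 1 had the lowest sum of all. That library had the lowest medial value of 18 of the 29 genes tested, and medial replicate 5 the highest of 13.

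A test across the whole table covered the 15596 genes with at least 1 TPM in at least 5 libraries, among them 29 of the 36 imprinted genes. By limma with Benjamini-Hochberg adjustment, 2 of the 29 were called lower in the lateral shell, Nnat and Blcap, as were 1.10% of all tested genes. None was called higher, where 0.385% of all tested genes were (1.48% were called in either direction). None was higher at an unadjusted p under 0.05 (3.03% of all tested genes), and none had all lateral values above all medial ones (0.859% of all tested genes). Estimates were negative for 24 of the 29 (82.8%) and for 68.7% of all tested genes. The median log2 fold change was -0.51 for the 29 and -0.21 for all genes tested, so part of the shift is shared by the table as a whole at this scaling, and 22 of the 29 lay below the median of all genes. With quantile normalization and median-ratio scaling the median of all genes was -0.00 and -0.02 and that of the imprinted genes -0.35 and -0.33. An unadjusted p under 0.05 with a lower lateral level was found for 11 of the 29 (37.9%) and for 12.3% of all tested genes, and 9 of those 11 did not pass the adjustment. The list was chosen with earlier results of these data known, and some of its genes share a locus. These shares are therefore descriptive, and a difference between them was not tested. Groups that did not overlap, with lateral lower, occurred for 3 of the 29, Nnat, Zdbf2 and Peg3, and for 3.39% of all tested genes. By expressed allele, 15 of 18 tested paternally expressed genes had negative estimates (median -0.49), as did 7 of 9 maternally expressed or biased genes (median -0.54), and a difference between the classes was not tested. Because a gene had to reach 1 TPM in 5 libraries, the genes that passed this filter are not a full account of the list, and the 7 that did not are described at the end.

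**Figure D2:**
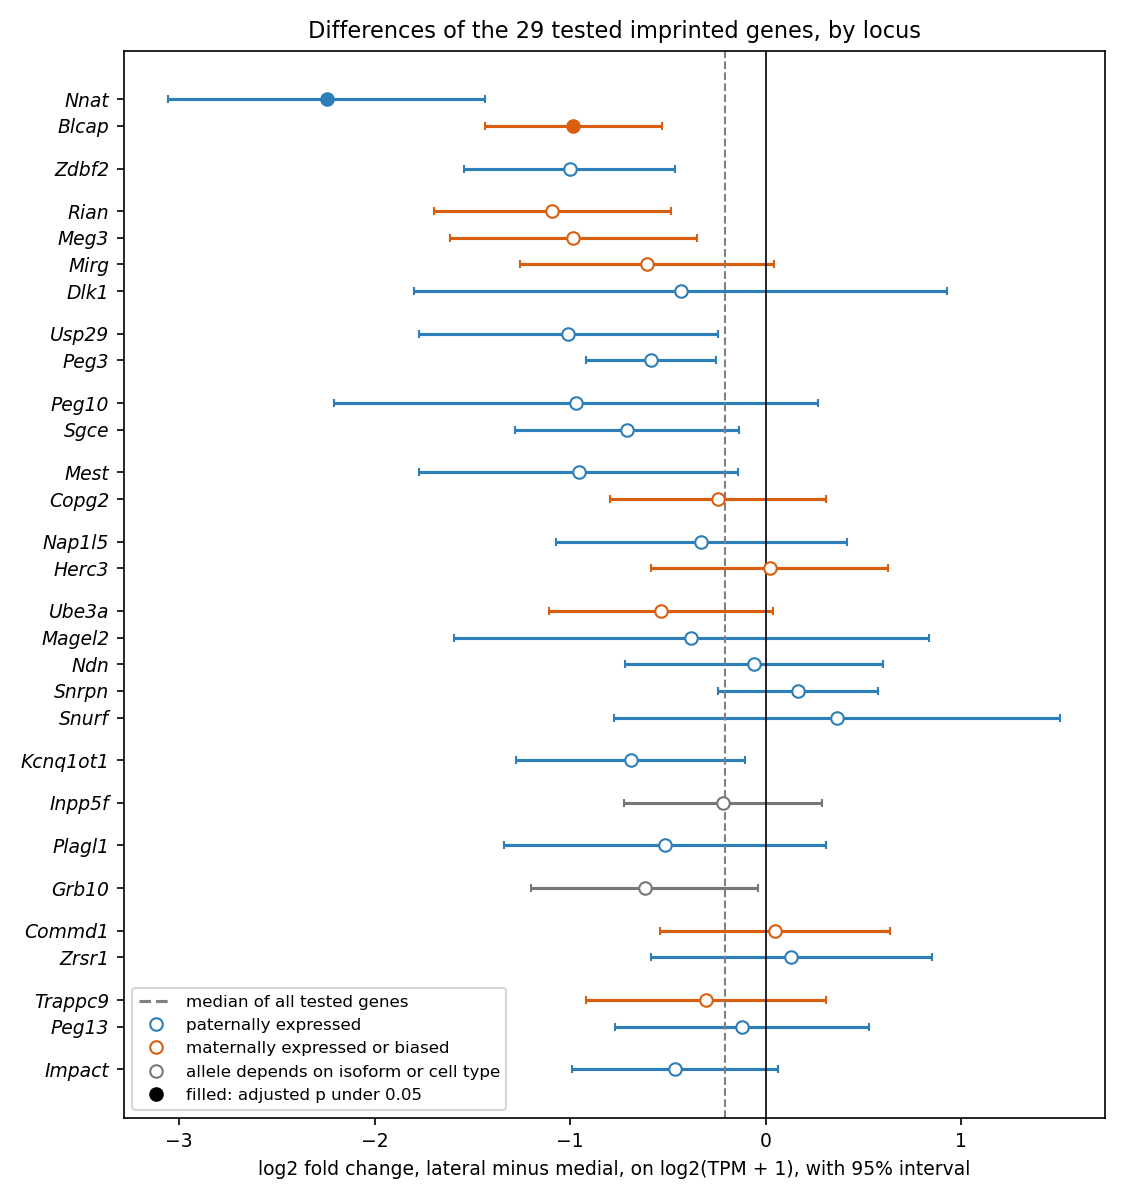
Log2 fold change, lateral minus medial, with its 95% interval from limma for the 29 tested imprinted genes, grouped by locus and coloured by expressed allele (x axis in log2 units of TPM + 1). The filled points, Nnat and Blcap, are those with an adjusted p under 0.05, and the dashed line marks the median of all tested genes at -0.21.

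Nnat and Blcap, which share a locus on chromosome 2, were the 2 genes called lower in lateral than in medial libraries. Nnat (ENSMUSG00000067786.16, chr2:157560078-157562522, plus strand, GRCm38) encodes neuronatin, a small membrane protein of the endoplasmic reticulum linked to calcium handling, and is expressed from the paternal copy. It lies inside Blcap (ENSMUSG00000067787.10, chr2:157556362-157571274, minus strand), which encodes a small membrane protein and is reported with maternal bias in mouse brain. The exons of the 2 genes share no bases in GENCODE M21. Nnat was at 94.1, 46.9, 109, 77.1 and 72.4 TPM in lateral replicates 1 to 5, against 148, 352, 395, 353 and 924 TPM in medial replicates 1 to 5. Every lateral library was below every medial one, and medial replicates 1 and 5 stood furthest from the other medial libraries. Its mean was 79.9 ± 23.4 TPM in lateral, against 434 ± 290.1 TPM in medial libraries (SD, n = 5 each), and the log2 fold change by limma was -2.24 ± 0.38 (standard error, 95% interval -3.05 to -1.43, adjusted p = 0.013).

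Blcap was at 88.8, 70.4, 69.5, 56.3 and 69.2 TPM in lateral replicates 1 to 5, against 81.9, 174, 161, 142 and 163 TPM in medial replicates 1 to 5. The groups overlapped through medial replicate 1, which was below lateral replicate 1, and the other 4 medial libraries were above all lateral ones. The lateral mean was 70.8 ± 11.6 TPM, against a medial mean of 144 ± 36.8 TPM (SD, n = 5 each), and the log2 fold change by limma was -0.98 ± 0.21 (standard error, adjusted p = 0.0358). The Blcap call was lost without any 1 of 8 libraries, namely replicates 2 to 5 of each region (largest adjusted p 0.103), and also under median-ratio scaling (0.0611), with no mean-variance trend (0.104) and with a replicate block (0.105). Nnat kept its call in each of those fits. Without the 2 libraries low in AY036118 neither passed, with a log2 fold change of -2.24 for Nnat (adjusted p = 0.0872) and -0.90 for Blcap (adjusted p = 0.18).

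The difference between the regions was larger for Nnat than for its host, and the ratio of the 2 genes within a library also separated the regions. The ratio of Nnat to Blcap TPM was 1.06, 0.666, 1.57, 1.37 and 1.05 in lateral replicates 1 to 5, against 1.81, 2.02, 2.46, 2.49 and 5.66 in medial replicates 1 to 5. No lateral ratio reached the lowest medial one, and a ratio within a library does not depend on how the libraries were scaled. Sox11, the neuroblast marker that passed, was also lower in lateral, at 6.07 to 14.1 TPM, against 18 to 46.0 TPM in medial libraries, a log2 fold change of -1.47 by limma (adjusted p = 0.0332). Of the 6 neuroblast genes tested, 5 had negative estimates, as did 68.7% of all tested genes, and Tubb3 did not (0.08). Only Sox11 among them had an unadjusted p under 0.05. The part of neuroblast genes in the Nnat difference was not tested.

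**Figure D3:**
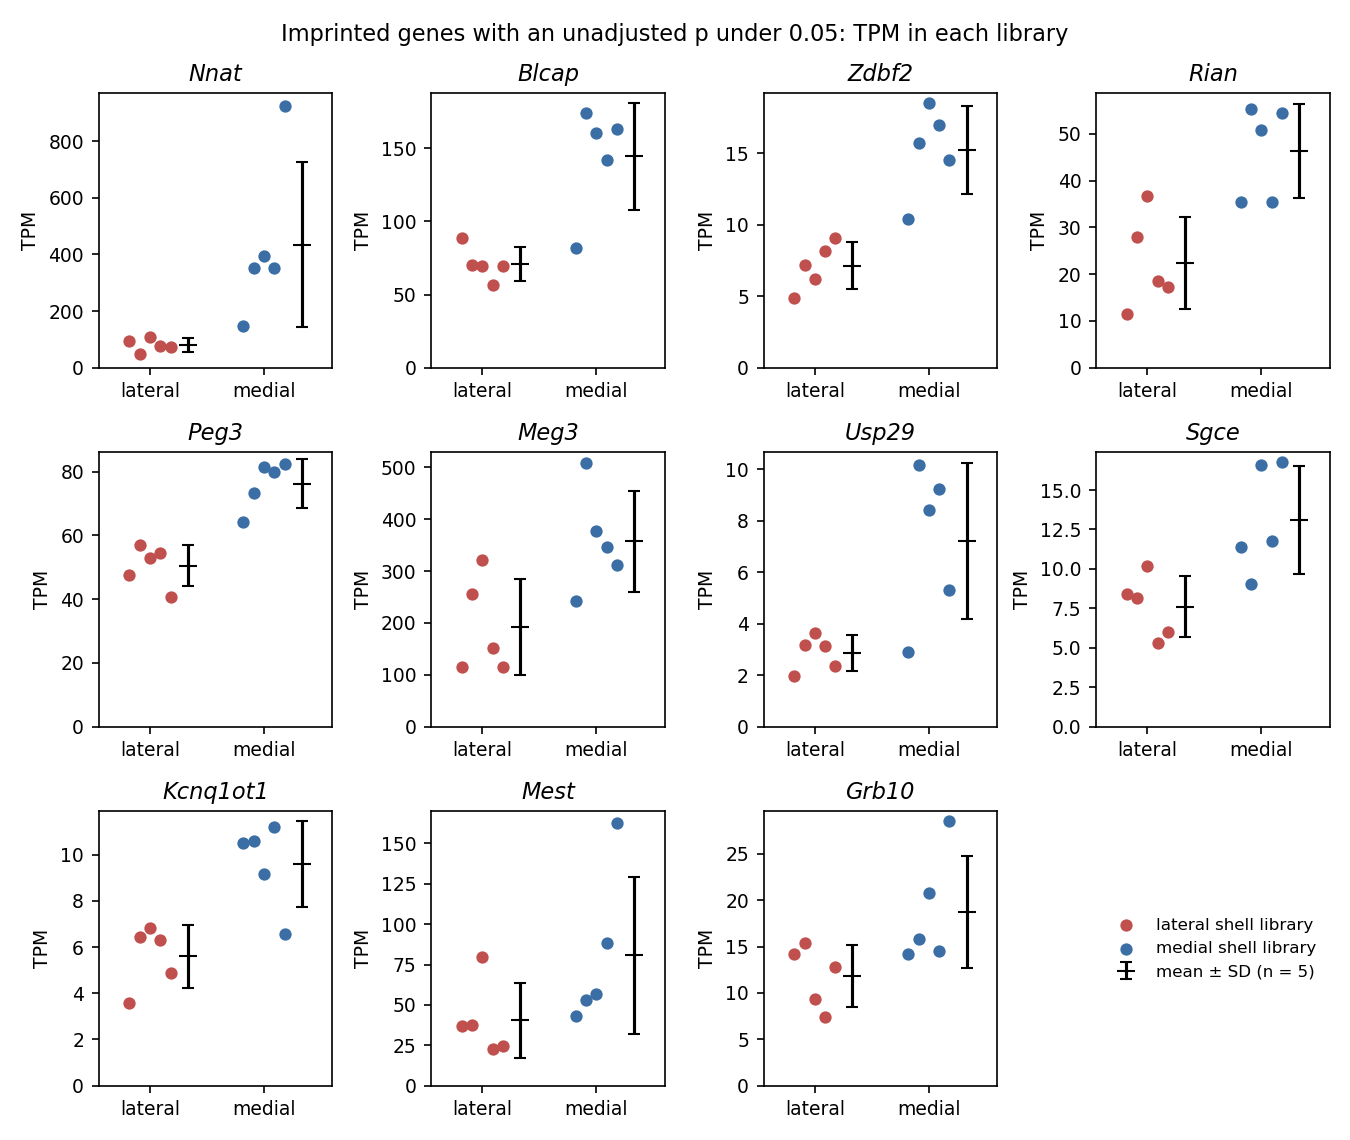
TPM of the 11 imprinted genes with an unadjusted p under 0.05 in each lateral (red, left) and medial (blue, right) library, with the mean ± SD of 5 libraries beside each group. Nnat, Zdbf2 and Peg3 do not overlap between the regions, and Nnat in medial replicate 5, at 924 TPM, is the highest value drawn.

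Zdbf2 (chr1:63273265-63314576, plus strand), a paternally expressed zinc finger gene known in mouse for its role in hypothalamic circuits and early growth, had separate groups but did not pass. It was at 4.88, 7.19, 6.23, 8.19 and 9.10 TPM in lateral replicates 1 to 5, against 10.4, 15.7, 18.5, 16.9 and 14.5 TPM in medial replicates 1 to 5. The highest lateral library was below the lowest medial one. By limma it differed by -1.0 on the log2 scale (standard error 0.25, adjusted p = 0.0711), and it passed without medial replicate 1, the lowest medial library (adjusted p = 0.0488). It passed in no other alternative fit, and without other single libraries its adjusted p reached 0.159.

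The Dlk1-Dio3 cluster on chromosome 12 pairs paternally expressed protein genes with a row of maternally expressed noncoding RNAs. Its noncoding genes Meg3 (chr12:109541001-109571726), Rian (chr12:109603940-109661716) and Mirg (chr12:109729764-109749460) lie in that order on the plus strand, with 32213 bases between Meg3 and Rian and 68047 between Rian and Mirg. Rian is host to small nucleolar RNAs and Mirg to microRNAs. None of the 3 passed, although all had negative estimates. Meg3 was at 114, 256, 321, 151 and 115 TPM in lateral replicates 1 to 5, against 242, 508, 377, 346 and 313 TPM in medial replicates 1 to 5 (log2 fold change -0.98, limma adjusted p = 0.129). Rian was at 11.6, 28.0, 36.6, 18.6 and 17.2 TPM in lateral replicates, against 35.3, 55.4, 50.8, 35.4 and 54.5 TPM in medial replicates in the same order (-1.09, adjusted p = 0.0798). Both genes were highest among lateral libraries in replicate 3 and, without it, both passed (adjusted p = 0.0489 for Meg3 and 0.0381 for Rian). Neither passed in any other alternative fit. Without other single libraries the limma adjusted p reached 0.274 for Meg3 and 0.185 for Rian. Mirg averaged 7.16 ± 2.86 TPM in lateral, against 11.0 ± 2.83 TPM in medial libraries (SD, n = 5 each, 95% interval of the log2 fold change -1.25 to 0.04).

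Within a library, Meg3 and Rian kept a similar proportion. Meg3 was 6.66 to 9.89 times the level of Rian in lateral and 5.74 to 9.77 times in medial libraries, on the TPM scale. The proportion of Meg3 to Mirg was wider, at 17.3 to 31.0 in lateral and 15.3 to 45.3 in medial libraries. Dlk1, the paternally expressed protein gene at the start of the cluster and a membrane relative of the Notch ligands, varied widely. It ranged from 0.345 to 8.49 TPM (median 3.46) in lateral and from 1.25 to 18.9 TPM (median 2.54) in medial libraries. The interval of its log2 fold change, -1.80 to 0.93, is wide on both sides of 0.

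**Figure D4:**
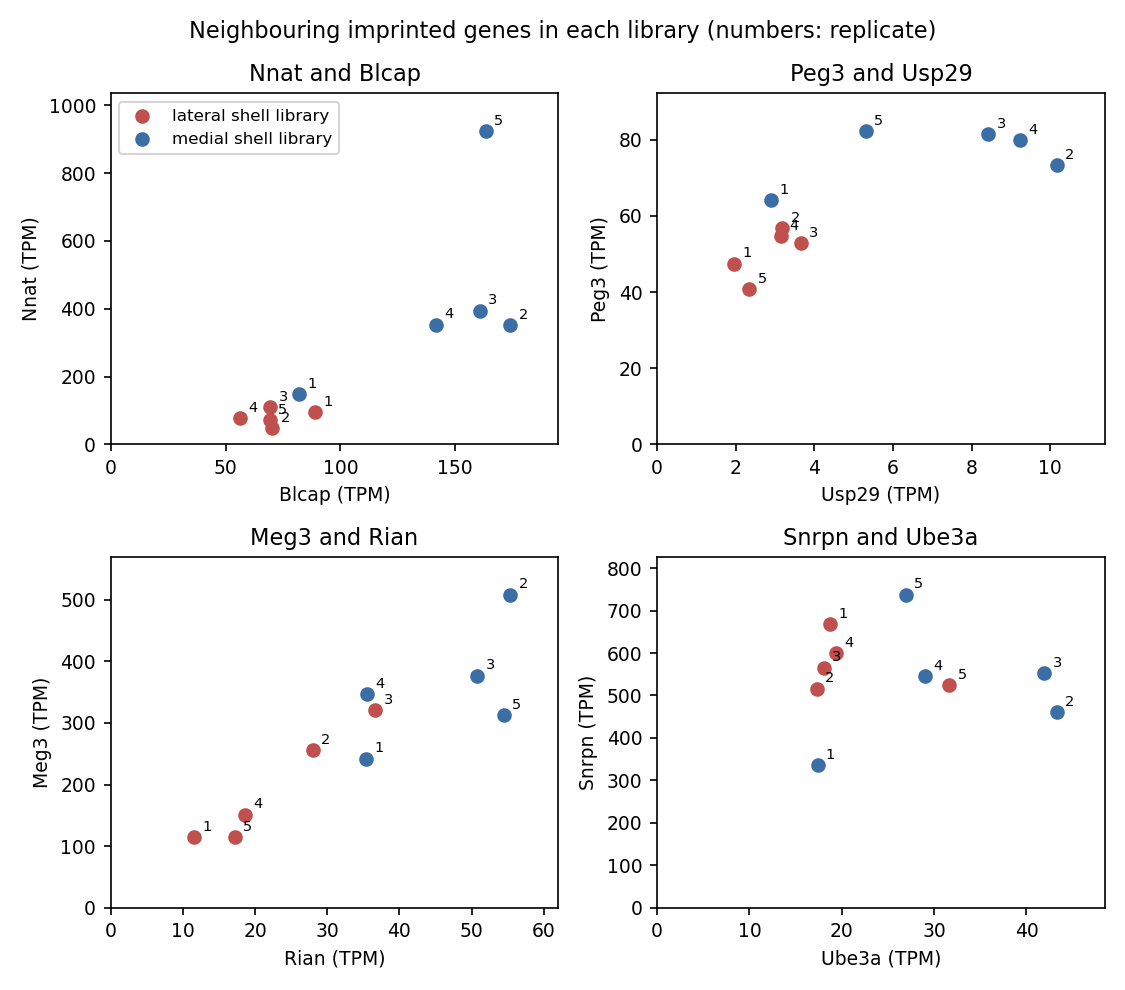
TPM of 4 pairs of neighbouring imprinted genes in each library, lateral in red and medial in blue, with replicate numbers. Medial replicates 2 to 5 separate from all lateral libraries for Nnat and Blcap, while Meg3 and Rian form 1 band in which lateral replicate 3 lies among the medial libraries.

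Peg3 (chr7:6703892-6730431, minus strand) and Usp29 (chr7:6730578-6967219, plus strand) are paternally expressed from starts only 147 bases apart. Peg3 encodes a large zinc finger protein known in mouse for effects on maternal behaviour, and Usp29 a deubiquitinating enzyme of the USP family. Peg3 was at 47.5, 56.9, 52.8, 54.6 and 40.7 TPM in lateral replicates 1 to 5, against 64.1, 73.3, 81.5, 79.9 and 82.3 TPM in medial replicates 1 to 5. The groups did not overlap and were tight, at 50.5 ± 6.49 TPM in lateral, against 76.2 ± 7.63 TPM in medial libraries (SD, n = 5 each). The log2 fold change, -0.59 ± 0.15 (standard error), did not pass (limma adjusted p = 0.0828). Usp29 was at 1.97, 3.18, 3.65, 3.14 and 2.35 TPM in lateral replicates, against 2.89, 10.2, 8.42, 9.23 and 5.32 TPM in medial replicates in the same order (-1.01, adjusted p = 0.198). Only medial replicate 1 was within the lateral range, and Usp29 shares 2582 exon bases with Zim3 on the other strand. Peg3 exceeded Usp29 by 14.5 to 24.1 times in lateral and by 7.21 to 22.2 times in medial libraries.

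On chromosome 6, Sgce and Mest had an unadjusted p under 0.05 and their neighbours did not. Sgce, encoding epsilon-sarcoglycan, whose human form is mutated in myoclonus-dystonia, was at 8.43, 8.13, 10.2, 5.33 and 6.02 TPM in lateral replicates 1 to 5, against 11.4, 9.06, 16.6, 11.8 and 16.8 TPM in medial replicates 1 to 5 (log2 fold change -0.71, limma adjusted p = 0.225). Peg10, derived from a retrotransposon and starting 99 bases from Sgce, ranged from 0 to 2.61 TPM (median 1.25) in lateral and from 0.0968 to 6.98 TPM (median 4.68) in medial libraries, and the other 4 medial values were all above the lateral range. Mest, encoding a protein of the hydrolase fold, was at 37.0, 37.8, 79.6, 22.8 and 24.7 TPM in lateral replicates, against 43.1, 53.1, 56.5, 88.1 and 162 TPM in medial replicates in the same order (-0.96, adjusted p = 0.251). Its groups overlapped through lateral replicate 3. Copg2, a vesicle coat subunit gene that shares 912 exon bases with Mest on the other strand, averaged 19.9 ± 4.08 TPM in lateral, against 24.5 ± 7.80 TPM in medial libraries. Whether counting used strand was not given in the sources used here, so reads of that stretch cannot be told apart.

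Also on chromosome 6, Nap1l5, a paternally expressed gene related to nucleosome assembly proteins that lies inside Herc3, averaged 187 ± 44.6 TPM in lateral, against 264 ± 138 TPM in medial libraries (SD, n = 5 each). Herc3, a ubiquitin ligase gene, averaged 10.02 ± 2.37 TPM in lateral libraries and 10.1 ± 3.22 TPM in medial libraries. The 95% interval of the log2 fold change was -1.07 to 0.42 for Nap1l5 and -0.59 to 0.63 for Herc3.

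The Snrpn-Ube3a cluster of chromosome 7, whose human counterpart is affected in Prader-Willi and Angelman syndromes, had no member with an unadjusted p under 0.05. Snrpn, which encodes the neuronal spliceosome protein SmN from the paternal copy, was at 667, 516, 566, 599 and 524 TPM in lateral replicates 1 to 5, against 337, 461, 552, 545 and 738 TPM in medial replicates 1 to 5. Medial replicates 1 and 5 held both the lowest and the highest value. The log2 fold change was 0.16 with a 95% interval of -0.24 to 0.57 (limma adjusted p = 0.721), and the interval leaves room for moderate differences in either direction. Ndn, encoding the MAGE family protein necdin, averaged 85.5 ± 21.2 TPM in lateral, against 96.7 ± 48.4 TPM in medial libraries, and Magel2, a MAGE family gene, 1.80 ± 2.71 TPM in lateral, against 2.1 ± 1.54 TPM in medial libraries. Snurf averaged 2.61 ± 1.32 TPM in lateral, against 2.47 ± 3.12 TPM in medial libraries, but 100% of its exon bases are also exon bases of Snrpn, so its value depends on how shared reads were assigned.

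Ube3a, the ubiquitin ligase gene that neurons express from the maternal copy, was at 18.7, 17.3, 18, 19.3 and 31.7 TPM in lateral replicates 1 to 5, against 17.4, 43.3, 41.9, 29 and 26.9 TPM in medial replicates 1 to 5. The highest value of each region was in the library low in AY036118, lateral replicate 5 and medial replicate 2. The log2 fold change was -0.54 (95% interval -1.11 to 0.04, limma adjusted p = 0.359). Snhg14, the antisense transcript that silences the paternal Ube3a copy in neurons, shares 1803 exon bases with Ube3a on the other strand. The ratio of Snrpn to Ube3a was 16.5 to 35.7 in lateral and 10.6 to 27.4 in medial libraries, and the ranges overlapped.

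Of the remaining loci, Kcnq1ot1 and Grb10 had an unadjusted p under 0.05. Kcnq1ot1, a long paternally expressed RNA that silences its neighbours in cis, was at 3.56, 6.45, 6.83, 6.32 and 4.86 TPM in lateral replicates 1 to 5, against 10.5, 10.6, 9.16, 11.2 and 6.55 TPM in medial replicates 1 to 5 (log2 fold change -0.69, limma adjusted p = 0.249). Medial replicate 5 was within the lateral range and the other 4 above it. Grb10, an adaptor of insulin and IGF receptors expressed from the paternal copy in neurons and the maternal copy elsewhere, was at 14.2, 15.4, 9.38, 7.43 and 12.8 TPM in lateral replicates, against 14.2, 15.9, 20.8, 14.5 and 28.5 TPM in medial replicates in the same order (-0.62, adjusted p = 0.291). Its groups overlapped. The other tested genes of these loci had intervals that included 0. Impact, a regulator of the GCN2 kinase, averaged 104 ± 23.6 TPM in lateral, against 149 ± 50.4 TPM in medial libraries. Plagl1, a zinc finger transcription factor gene, averaged 3.72 ± 1.22 TPM in lateral, against 6.30 ± 4.15 TPM in medial libraries. The phosphoinositide phosphatase gene Inpp5f averaged 42.1 ± 4.53 TPM in lateral, against 51.5 ± 17.1 TPM in medial libraries.

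The 2 host and guest pairs left were close to even between the regions. Commd1 and Zrsr1, a splicing factor gene inside it, had log2 fold changes of 0.05 (95% interval -0.54 to 0.63) and 0.13 (-0.59 to 0.85). Commd1 and Zrsr1 share 412 exon bases on opposite strands. Trappc9, a vesicle trafficking gene, and Peg13, a paternally expressed noncoding RNA inside it, had -0.31 (-0.92 to 0.31) and -0.12 (-0.77 to 0.53). Those intervals do not show that the levels were equal.

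**Figure D5:**
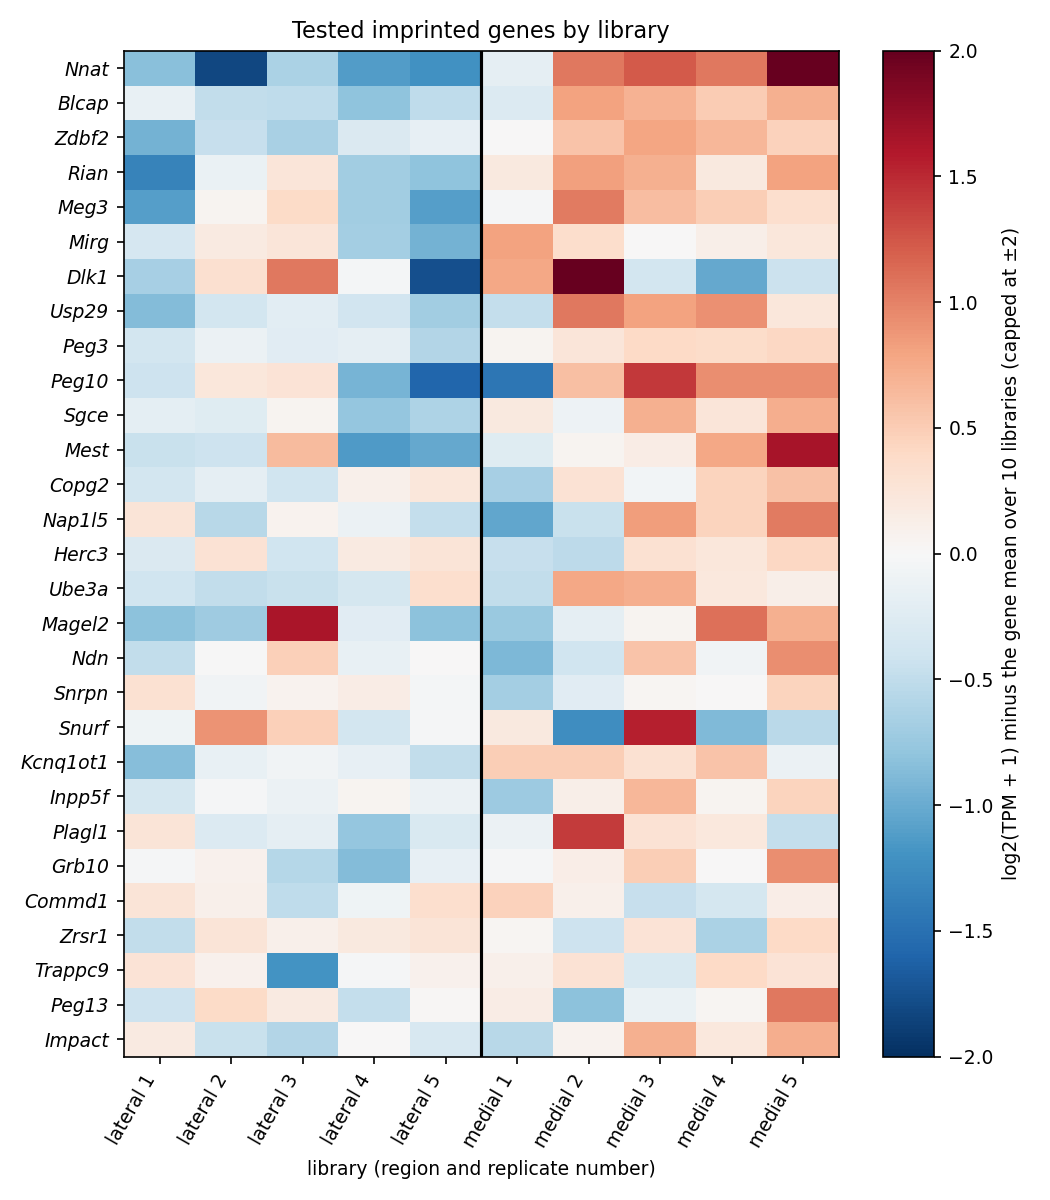
Log2(TPM + 1) of each tested imprinted gene (rows, in locus order) minus its mean over the 10 libraries, for 5 lateral (left of the line) and 5 medial libraries, with colours capped at ±2. Nnat, Blcap and Zdbf2 are low across the lateral columns, medial replicate 1 is paler or bluer than the other medial libraries for many genes, and medial replicate 5 is red for many.

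The 7 imprinted genes under the filter reached 1 TPM in fewer than 5 libraries, some of them with higher values in single libraries, and were not tested. Cdkn1c, a maternally expressed cell cycle inhibitor gene, was listed at 3.06, 0, 1.05, 0 and 7.79 TPM in lateral replicates 1 to 5 and at 0 in all 5 medial libraries. Airn, the paternally expressed RNA that silences Igf2r in cis, had no value above 0 in the 5 lateral libraries, against 4.54, 0, 3.40, 0 and 0.517 TPM in medial replicates 1 to 5. The growth factor gene Igf2, which the choroid plexus and meninges express from both copies, ranged from 0.0888 to 3.18 TPM in lateral and from 0 to 16.6 TPM in medial libraries. The 3 choroid plexus markers in the table summed to 2.85 to 13.8 TPM in lateral, against 3.00 to 14.1 TPM in medial libraries. The 6 leptomeningeal and vascular fibroblast markers found summed to 73.9 to 409 TPM in lateral, against 32.3 to 319 TPM in medial libraries. The part of either list in the Igf2 values was not tested. H19, Zim1, Asb4 and Dio3 were at most 1.23, 1.23, 1.80 and 0.294 TPM in lateral libraries and at most 0.32, 1.25, 2.91 and 4.82 TPM in medial libraries. An exact 0 in this table is only a value listed at 0, since depth is unknown.

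A list of 38 other genes reported as imprinted in mouse was read beside these, with 25 in the table and 22 tested. By limma, 1 of the 22 was lower in lateral (against 1.10% of all tested genes) and none higher (against 0.385%), with 3 lower (against 12.3% of all tested genes) and 1 higher (against 3.03%) at an unadjusted p under 0.05. These counts are near the shares over all tested genes. The gene called was Ddc, encoding the aromatic amino acid decarboxylase that makes dopamine and serotonin, which lies 32363 bases from Grb10 on chromosome 11. Ddc was at 1.09, 5.00, 4.36, 6.84 and 3.17 TPM in lateral replicates 1 to 5, against 10.7, 33.2, 19.99, 22.3 and 25.7 TPM in medial replicates 1 to 5 (log2 fold change -2.24, limma adjusted p = 0.013). The groups did not overlap. Without the 2 libraries low in AY036118 it did not pass (-2.04, adjusted p = 0.1).

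The others with an unadjusted p under 0.05 did not pass the adjustment. Pon3, a paraoxonase gene, was at 5.64, 3.82, 3.94, 2.77 and 3.98 TPM in lateral replicates 1 to 5, against 0.916, 0.982, 2.05, 0 and 0 TPM in medial replicates 1 to 5 (log2 fold change 1.6, limma adjusted p = 0.0845, and 0.0485 with quantile normalization). In the other alternative fits Pon3 did not pass, with a limma adjusted p of up to 0.242. It was the only one of the 22 whose lateral values were all above the medial ones. Begain, a postsynaptic protein gene, was at 21.8, 25.9, 29.3, 23.4 and 28.2 TPM in lateral replicates 1 to 5, against 41.1, 33.2, 46.1, 27.7 and 73.1 TPM in medial replicates 1 to 5 (limma adjusted p = 0.191). Ago2, of the RNA silencing machinery, was at 14.96, 17.6, 19.2, 12.6 and 15.8 TPM in lateral replicates, against 21.4, 20.1, 24.8, 23.5 and 18.7 TPM in medial replicates in the same order (limma adjusted p = 0.32). Both overlapped between the regions, Begain through medial replicate 4 and Ago2 through medial replicate 5. Calcr, the calcitonin receptor gene, was under the filter and not tested, at 0.305, 0, 0, 0.123 and 0.0458 TPM in lateral replicates 1 to 5, against 0.334, 5.83, 5.04, 2.78 and 2.50 TPM in medial replicates 1 to 5. Its groups did not overlap, and lateral replicate 1 and medial replicate 1 were nearly level.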

How the data were processed

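The authors' deposited table gives TPM per gene symbol, 1 column per library, every column scaled to the same total. The submitters' processing notes list featureCounts 1.6.3, StringTie 1.3.4, HISAT2 2.1.0 and fastp 0.20.0, without roles, and the build GRCm38 (mm10). Annotation and strand use were not given in the sources used here. Since TPM hides how many reads lie behind a value, depth is unknown, counting error cannot be stated, and any gene that takes much of a library lowers the rest.

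The regions were compared by limma 3.58.1 under R 4.3.3 (empirical Bayes with a mean-variance trend) on log2(TPM + 1), which understates the change of low genes, over genes with at least 1 TPM in at least 5 of 10 libraries, with Benjamini-Hochberg adjusted p under 0.05 over all 15596 genes as the threshold. Genes with an unadjusted p under 0.05 or no overlap are given library by library. The scripts were tested on simulated data. The members and lists were chosen with earlier results of these data known. Gene positions are from GENCODE M21 and promoters from RefSeq, both on GRCm38. Alternatives changed the pseudocount, filter, scaling, variance model, block and libraries. A rescaling that also leaves out AY036118 was added after seeing the data.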

Additional observations from a re-analysis of the deposited data

Results flagged for a closer look

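Within each group of 5 libraries, a value was singled out when its gap to the nearest other value exceeded 0.71 of the whole range. Chance gives such a gap in about 1 of 20 groups of normally distributed values, and TPM values with ties at 0 need not follow that rate. Of 70 groups of imprinted gene values, 13 had such a gap, in 10 genes, and most hold low or zero values. In lateral libraries the high values were Mest at 79.6 TPM in replicate 3 (others 22.8 to 37.8), Magel2 at 6.62 TPM in replicate 3 (others 0.387 to 1.11), Ube3a at 31.7 TPM in replicate 5 (others 17.3 to 19.3) and Igf2 at 3.18 TPM in replicate 2 (others 0.0888 to 0.681). Asb4 reached 1.80 TPM and Dio3 0.294 TPM in lateral replicate 5, and H19 reached 1.23 TPM in lateral replicate 1. Zrsr1 was low at 2.51 TPM in lateral replicate 1 (others 4.31 to 4.95). In medial libraries, replicate 3 was high for Asb4 at 2.91 TPM, Snurf at 7.85 TPM and Igf2 at 16.6 TPM, replicate 2 for Plagl1 at 13.5 TPM (others 2.93 to 5.68) and replicate 4 for Dio3 at 4.82 TPM (others at 0).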

How the results depend on the processing

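Over 23 alternatives, none of the 29 imprinted genes was called higher in lateral, with 22 of them tested under the 5 TPM filter. In the same fits only 15 to 88 of all tested genes were called higher, so a count of 0 among 29 says little. The estimates of 17 genes were recomputed, namely those with an unadjusted p under 0.05 in the main limma fit, with Snrpn and Ube3a added. None changed sign, over 22 alternatives for Usp29 and Pon3, which the 5 TPM filter leaves out, and over 23 for the others. Most of these genes were picked for a difference in the same libraries, so a kept sign says little. The number of imprinted genes called lower was 2 and became 1 with median-ratio scaling, 1 with the trend of the variance left out and 1 with the replicate block, 1 to 3 when single libraries were left out and 0 without both libraries low in AY036118, a fit of 8 libraries. The log2 fold change of Nnat was -2.57 to -1.91 when single libraries were left out. Of the other imprinted genes, 1 was called higher with quantile normalization and 0 lower without both libraries low in AY036118. Over all genes, 60 higher and 171 lower calls (74.0% lower) became 107 lower with a pseudocount of 0.1, 86 and 100 (53.8%) with quantile normalization, 88 and 82 (48.2%) with median-ratio scaling, 34 and 111 without the trend, 19 and 45 with the replicate block, 27 to 68 higher and 56 to 187 lower without single libraries, and 15 and 35 without both. The replicate numbers are not known to pair libraries, and deviations of same-numbered libraries correlated at -0.053 to 0.042 across genes. TPM limits precision in an unknown way, since depth is not kept.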
